A study of Oryza sativa Japonica Group with 17 samples.

Results

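OsDDM1b (LOC_Os03g51230, chromosome 3) and OsDDM1a (LOC_Os09g27060, chromosome 9) are the paired rice copies of DDM1, and they are the genes that the osddm1a/1b plants are named for. Both were taken by their locus identifiers from a gene expression comparison of osddm1a/1b with its wild type, so that the pair makes up 2 of 55986 loci listed and 2 of the 29212 that carry an adjusted p. The identifiers were paired with the gene names from general knowledge, since the files give no names. The whole study comprised 17 samples of rice (Oryza sativa, japonica) at 12 days of age, namely 5 bisulfite, 8 RNA-seq, 2 small RNA and 2 histone mark libraries, and the growth protocol names leaves as the harvested tissue. The 4 RNA-seq libraries compared here were 2 of osddm1a/1b and 2 of Cr-DJ-1, all labelled as DongJin material, with no treatment named. Seedlings were raised on Murashige and Skoog medium without hormones.

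The mutant libraries carry the name osddm1a/1b in their titles, but their genotype field reads osddm1b alone. The control's field reads DJ(osddm1a/1b WT). Among the bisulfite samples, which were not analysed here, the single osddm1a and the double osddm1a/1b are labelled DongJin and the single osddm1b is labelled Hwayoung, another variety. The labels do not state what kind of mutation either gene carries or where it lies. Counts over a whole locus therefore do not show which stretch of a transcript was left, nor whether it could be translated. The paired libraries of a genotype are called repeats with no word on separate plants, so what the p-values measure is the spread of these libraries, possibly a technical one.

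DDM1 is a chromatin remodeller of the SNF2 family, a group of ATP-driven motors that shift or loosen nucleosomes. In Arabidopsis, where it was first described, DDM1 opens compact heterochromatin to DNA methyltransferases, and its loss lowers DNA methylation over transposons and repeats. Maintenance of CG methylation is the task of MET1 enzymes, CHG methylation that of the chromomethylase CMT3, and DRM2 methylates sites to which small RNAs guide it.

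OsDDM1b transcript was strongly reduced in osddm1a/1b, whereas OsDDM1a transcript did not pass the test. Reads per library are not listed in the authors' deposited table. They could be worked out because only 1 set of whole reads gave the deposited mean, fold and standard error of each gene. Libraries are told apart here by their size factor, the authors' scaling for sequencing depth, because it is unknown which column was repeat 1 or repeat 2. The genotype of each library rests on the direction of the deposited fold, which the authors' deposited table does not state. The reading used here is osddm1a/1b over Cr-DJ-1 with the deposited sign turned. It is the likely one, since the study's own list of files puts the wild type ahead of the mutant and since this reading has a mutated gene go down. OsDDM1b therefore cannot serve to check the labels, and "higher" and "lower" hold under this reading throughout.

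OsDDM1b had 79 and 58 reads in the osddm1a/1b libraries (size factors 1.15 and 0.888), against 794 and 659 reads in the Cr-DJ-1 libraries (size factors 1.1 and 0.891). After division by the size factors, the first osddm1a/1b library stood at 68.4 normalized counts (95% exact Poisson interval 54.2 to 85.3) and the second at 65.3 (49.6 to 84.4). The first Cr-DJ-1 library stood at 720 normalized counts (671 to 772) and the second at 740 (684 to 798). Libraries of the same genotype thus lay within each other's counting intervals, and the genotypes lay far apart. These intervals hold counting error of reads alone and leave out the spread between libraries. They may be too narrow even for that, because copies made by amplification are not separate molecules.

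The means for OsDDM1b were 66.9 ± 2.19 normalized counts in osddm1a/1b and 730 ± 14 in Cr-DJ-1 (SD, n = 2 each), which puts the residual transcript at 9.16% of wild type, a 10.9-fold reduction. Under the other reading of the deposited sign, the same libraries would show OsDDM1b 10.9-fold higher in osddm1a/1b. In the authors' deposited table the log2 fold of OsDDM1b was -3.27 (SE 0.16, 95% interval -3.59 to -2.95, adjusted p = 1.27e-86 by the DESeq2 Wald test). An adjusted p under 0.05 was reached by 13641 of 29212 loci (46.7%) of the authors' deposited table, and 5593 of all loci (19.1%) reached it with a lower level in osddm1a/1b. The deposited fold is moderated, that is, pulled towards 0, and it corresponds to a residual of 10.3% of wild type (8.28 to 12.9%). Taken back from that fold and the mean of 398 in the authors' deposited table, the level would be 74.7 normalized counts in osddm1a/1b and 722 in Cr-DJ-1. Reads were counted to OsDDM1b in both libraries read as osddm1a/1b, and whether some of them came from OsDDM1a transcript was not tested. Fewer cells that transcribe the gene and less transcript per cell cannot be told apart in RNA from whole leaves.

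OsDDM1a had 301 and 231 reads in the osddm1a/1b libraries, against 336 and 241 reads in the Cr-DJ-1 libraries. These were 261 (232 to 292) and 260 (228 to 296) normalized counts in osddm1a/1b, against 305 (273 to 339) and 271 (237 to 307) in Cr-DJ-1. All 4 counting intervals shared a common range. The osddm1a/1b libraries were both below the Cr-DJ-1 libraries, as the groups also failed to overlap for OsDDM1b. That holds for 14869 of 18463 loci with a mean of 10 to 1000 normalized counts (80.5%), and nothing is read from it.

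The OsDDM1a means were 260 ± 0.36 normalized counts in osddm1a/1b and 288 ± 24.1 in Cr-DJ-1 (SD, n = 2 each), or 90.6% of wild type. Its log2 fold was -0.14 with a 95% interval of -0.45 to 0.18 in the authors' deposited table, and it did not pass (SE 0.16, adjusted p = 0.511 by the DESeq2 Wald test). On the percent scale the deposited interval runs from 73 to 113% of wild type. A fall to the residual level of OsDDM1b lies far outside that interval, while a level of 73% is its lower end. The plants are named as mutants of this gene too, and its transcript level alone does not tell whether the allele was altered.

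**Figure D1:**
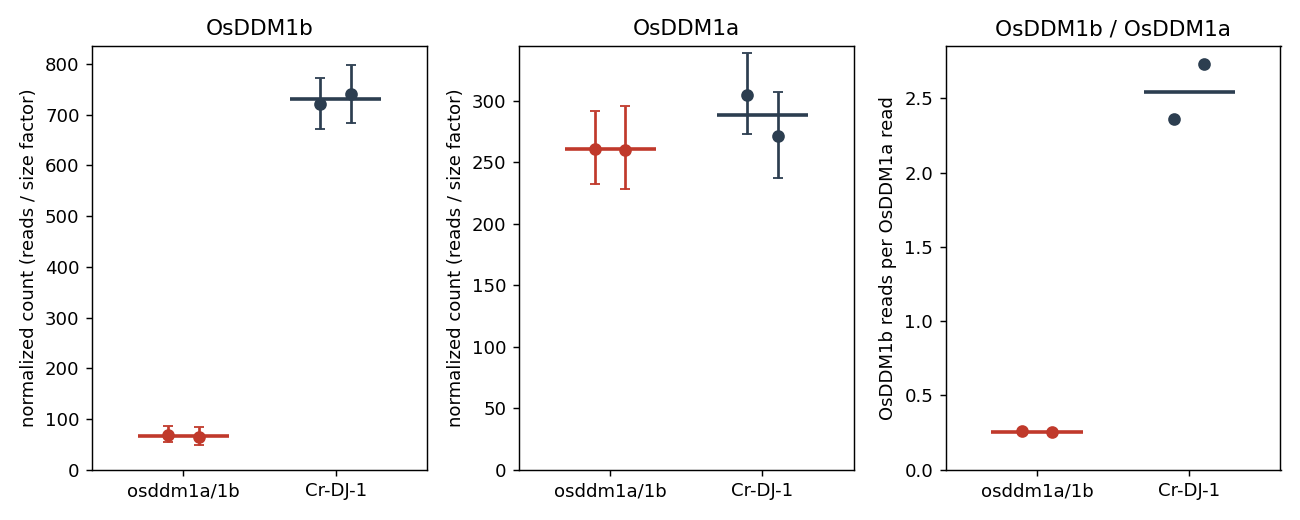
Normalized counts of OsDDM1b (left) and OsDDM1a (middle), and OsDDM1b reads per OsDDM1a read (right), in the osddm1a/1b and Cr-DJ-1 libraries. Points are single libraries with 95% exact Poisson intervals in the first 2 panels, and lines are group means. OsDDM1b stands at 66.9 in osddm1a/1b and 730 in Cr-DJ-1, OsDDM1a at 260 and 288.

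Limma on the log2 of the recovered normalized counts plus 1, run over 18463 loci, gave the same calls. OsDDM1b was at -3.43 (SE 0.0769, adjusted p = 3.42e-06) and OsDDM1a at -0.14 (SE 0.0827, adjusted p = 0.195) in the limma test, which called 10862 loci (58.8%). Without each library in turn, the limma value of OsDDM1b lay between -3.46 and -3.40. That of OsDDM1a depended on the Cr-DJ-1 libraries, being -0.05 (limma adjusted p = 0.698) without the library of size factor 1.1 and -0.23 (limma adjusted p = 0.0889) without the library of size factor 0.891. A test on 2 against 2 single values has 6 splits and cannot go below an exact two-sided permutation p of 0.333, which both genes reached.

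The balance of the copies was read within single libraries. Within the osddm1a/1b libraries there were 0.262 and 0.251 OsDDM1b reads per OsDDM1a read, against 2.36 and 2.73 in the Cr-DJ-1 libraries. The ratio needs no size factor, and at 10.1% of wild type it was 9.93-fold lower in osddm1a/1b (exact two-sided permutation p = 0.333, the smallest possible). OsDDM1b supplied 20.8% and 20.1% of the pair's reads in osddm1a/1b, against 70.3% and 73.2% in Cr-DJ-1. OsDDM1b thus gave the larger share of reads in both Cr-DJ-1 libraries and the smaller in both osddm1a/1b libraries. Reads were not divided by transcript length, for which the files give no value, so these shares do not say which copy had more transcript molecules.

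Reads of both copies together came to 329 and 325 normalized counts in osddm1a/1b, against 1025 and 1010 in Cr-DJ-1. The means were 327 ± 2.55 in osddm1a/1b and 1017 ± 10.2 in Cr-DJ-1 (SD, n = 2 each), so that 32.2% of the wild-type sum was left. OsDDM1a supplied most of what was left, at a level that did not pass the test for a difference from wild type. No rise of OsDDM1a beyond 113% of wild type lies within the interval of the authors' deposited table. The sources used here do not give how reads that match both copies were counted, and the part of such reads in these values was not tested.

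The size of the OsDDM1b fall can be set against the other loci. By deposited log2 fold, 33 loci of the authors' deposited table lay below OsDDM1b, which made it the 34th lowest of 29212. With the deposited sign left as it stands, it would be the 34th highest, with the same 33 loci beyond it. Among 7481 loci with a mean between 0.5 and 2 times its own, 12 lay at or below its fold in the authors' deposited table, and 1814 passed and were lower, 1757 passed and were higher. The middle 50% of those loci had a median log2 fold of -0.04 and lay between -0.29 and 0.28 in the authors' deposited table. By unmoderated folds of recovered reads, 81 of 18463 loci (0.439%) lay at or below OsDDM1b, a count that includes OsDDM1b itself. OsDDM1a lay among the bulk of loci of its level. Of 6818 loci with a mean between 0.5 and 2 times that of OsDDM1a, 5189 had a log2 fold at least as far from 0 in the authors' deposited table, and 3066 (45%) passed.

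**Figure D2:**
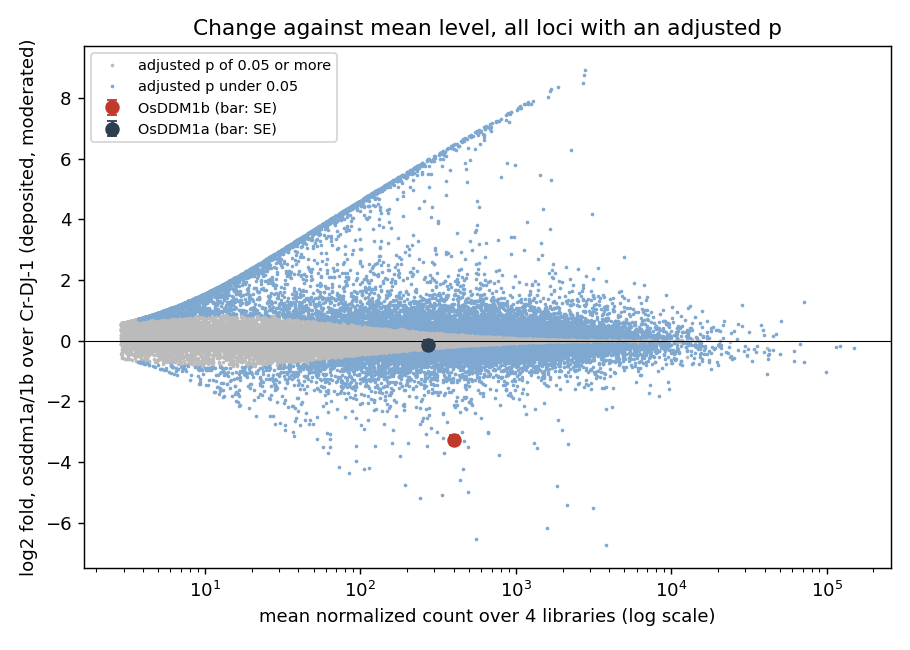
Log2 fold, osddm1a/1b over Cr-DJ-1, against the mean normalized count over 4 libraries on a log axis, for 29212 loci of the authors' deposited table with the sign turned. Blue points passed an adjusted p of 0.05 and bars on the larger points are SE; OsDDM1b lies at -3.27, with 33 loci below it, and OsDDM1a at -0.14.

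The spread that the authors' model assigned to both genes was small and similar. The dispersion that returns the deposited standard error was 0.00684 for OsDDM1b and 0.00994 for OsDDM1a, which equals a coefficient of variation beyond counting noise of 8.27% for OsDDM1b and 9.97% for OsDDM1a. The variance between libraries of 1 genotype was read over recovered loci with enough reads, all with a mean under 1000 normalized counts. It was 1.23 times counting noise in osddm1a/1b (18160 loci) and 1.34 times in Cr-DJ-1 (16423 loci). At these loci the repeats of a genotype were thus close to, but above, what counting noise alone gives. For OsDDM1b alone the same measure was 0.0716 in osddm1a/1b and 0.264 in Cr-DJ-1. For OsDDM1a it was 0.000501 in osddm1a/1b and 1.99 in Cr-DJ-1. The dispersions above are therefore values of the model and not a spread seen at each gene. Loci with higher means were not tested in this way, and each library was kept as a sample.

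The loci whose change was most like that of each gene were found by the nearest deposited log2 fold among loci of similar mean, in this 1 contrast of 2 genotypes. For OsDDM1b they were LOC_Os05g12630 and LOC_Os08g26710. LOC_Os05g12630 had 77.9 and 75.5 normalized counts in osddm1a/1b, against 798 and 913 in Cr-DJ-1. LOC_Os08g26710 had 56.3 and 59.7 in osddm1a/1b, against 657 and 580 in Cr-DJ-1. The deposited log2 folds were -3.32 for LOC_Os05g12630 and -3.22 for LOC_Os08g26710 in the authors' deposited table, on either side of OsDDM1b. For OsDDM1a they were LOC_Os06g40840 (447 and 438 in osddm1a/1b, against 493 and 484 in Cr-DJ-1) and LOC_Os04g58140 (416 and 410 in osddm1a/1b, against 423 and 491 in Cr-DJ-1). Neither LOC_Os06g40840 (adjusted p = 0.379) nor LOC_Os04g58140 (adjusted p = 0.414) passed the DESeq2 Wald test in the authors' deposited table. With a single contrast, likeness means no more than a similar fold.

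Neighbouring loci were read for both genes. Locus numbers run along each chromosome, so the tested loci next to each gene could be read in order, although no coordinates are given. On chromosome 3, 8 of the 20 nearest tested loci around OsDDM1b (10 on each side) passed in the authors' deposited table, 4 higher and 4 lower. Their median log2 fold in the authors' deposited table was -0.14 and their range -0.46 to 1.65, while 47.5% of the 3523 tested loci of chromosome 3 passed with a median of 0.05. The direct neighbours LOC_Os03g51220 (log2 -0.12, adjusted p = 0.149) and LOC_Os03g51240 (-0.28, adjusted p = 0.167) did not pass the DESeq2 Wald test in the authors' deposited table. With 20 loci on each side, the lowest neighbour stood at -0.65 in the authors' deposited table, so no neighbour within that distance had a fall of the size of OsDDM1b.

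Around OsDDM1a on chromosome 9, 14 of the 20 nearest tested loci passed in the authors' deposited table, 13 higher and 1 lower. Their median log2 fold in the authors' deposited table was 0.79 and their range -0.79 to 1.94, while 47.1% of the 1694 tested loci of chromosome 9 passed with a median of 0.06. All 20 stood above OsDDM1a at -0.14 except LOC_Os09g26920 (-0.15), LOC_Os09g27140 (-0.21) and LOC_Os09g27160 (-0.79) in the authors' deposited table. With 20 loci on each side, 20 were higher and 3 lower, and the median was 0.44 in the authors' deposited table. Over the whole of chromosome 9, 468 of the 1694 tested loci were higher and 330 lower, and 27.6% of all tested loci were higher.

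The loci just before OsDDM1a formed an unbroken run. This stretch was singled out after its values were seen. All 9 tested loci from LOC_Os09g26940 to LOC_Os09g27050 were higher in osddm1a/1b in the authors' deposited table, with log2 folds of 0.71 to 1.94 and a median of 1.07. LOC_Os09g27010, the highest of them, had 1185 and 982 reads in osddm1a/1b, against 278 and 254 in Cr-DJ-1, or 1026 and 1106 normalized counts in osddm1a/1b, against 252 and 285 in Cr-DJ-1. LOC_Os09g26999, the lowest of the run, had 669 and 657 normalized counts in osddm1a/1b, against 416 and 386 in Cr-DJ-1. LOC_Os09g26980 had 152 normalized counts in each osddm1a/1b library, against 72.5 and 62.9 in Cr-DJ-1. The run also held low loci, such as LOC_Os09g26970 with 24 and 21 reads in osddm1a/1b, against 2 and 6 in Cr-DJ-1.

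The run ended at OsDDM1a. LOC_Os09g27050, directly before it, was at 1.01 (adjusted p = 3.53e-45), and LOC_Os09g27070, directly after it, was at 0.00 (adjusted p = 0.989), both by the DESeq2 Wald test in the authors' deposited table. Along all chromosomes of the authors' deposited table there were 5340 runs of neighbouring tested loci that passed and were higher, counting single loci as runs. Of these, 4 held 9 or more loci, on 4 chromosomes and with 38 loci in all, and the longest held 11. The run beside OsDDM1a was the only one of that length on chromosome 9. Whether the allele of OsDDM1a or chromosome segments that differ between the lines take part in this run was not tested.

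**Figure D3:**
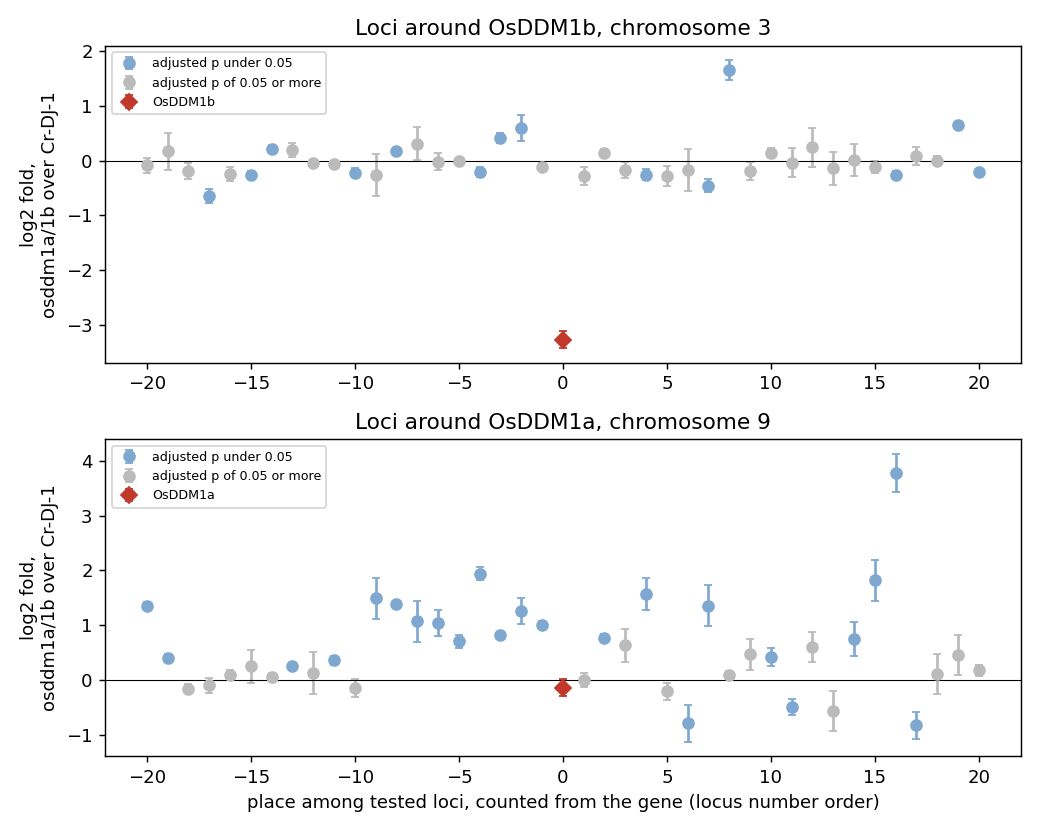
Log2 fold, osddm1a/1b over Cr-DJ-1, with SE bars, for the 20 tested loci on each side of OsDDM1b (top) and OsDDM1a (bottom) in locus number order, from the authors' deposited table with the sign turned. Blue loci passed an adjusted p of 0.05; the fall of OsDDM1b stands alone, and the 9 loci just before OsDDM1a lie between 0.71 and 1.94.

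A list of 11 genes tied to DNA methylation was read beside the pair. Of these, 7 were higher, none was lower and 4 missed the threshold in the authors' deposited table. The median log2 fold of the 11 was 0.86 in the authors' deposited table, while 27.6% of all tested loci were higher and the median over all was 0.05. The 7 and the median include LOC_Os11g01810 and LOC_Os12g01800, with means of 6.97 and 4.07 normalized counts. Almost all their reads lay in osddm1a/1b, so these loci could be called only as higher. Names could be matched to the reference table for 6 of the 11. The maintenance methyltransferase gene OsMET1b had 390 and 382 normalized counts in osddm1a/1b, against 158 and 144 in Cr-DJ-1. The authors' deposited table gave it a log2 fold of 1.29 (SE 0.17, adjusted p = 7.02e-14 by the DESeq2 Wald test). OsCMT3a, a chromomethylase gene, had 769 and 761 normalized counts in osddm1a/1b, against 317 and 322 in Cr-DJ-1 (log2 1.23, SE 0.12, adjusted p = 5.02e-24 by the DESeq2 Wald test in the authors' deposited table). OsCMT3b, a second chromomethylase gene, had 59.8 and 39.4 normalized counts in osddm1a/1b, against 17.2 and 25.8 in Cr-DJ-1 (log2 0.86, adjusted p = 0.0293 by the DESeq2 Wald test in the authors' deposited table). The OsCMT3b libraries were more scattered than those of OsMET1b and OsCMT3a. The genotypes did not overlap for any of these genes. That holds for 14869 of 18463 loci with a mean of 10 to 1000 normalized counts (80.5%), and nothing is read from it.

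Among named members that did not pass, the de novo methyltransferase gene OsDRM2 was at 0.07 (adjusted p = 0.512) and its relative OsDRM3 at -0.12 (adjusted p = 0.198) by the DESeq2 Wald test in the authors' deposited table. OsMET1a, named to complete the matched genes after its value was seen, had 26.8 and 36 normalized counts in osddm1a/1b, against 17.2 and 24.7 in Cr-DJ-1 (log2 0.39, adjusted p = 0.403 by the DESeq2 Wald test in the authors' deposited table). The members without a matched name included 2 with almost no reads in Cr-DJ-1. LOC_Os11g01810 had 14 and 13 reads in osddm1a/1b, against 0 and 1 in Cr-DJ-1, and LOC_Os12g01800 had 11 and 6 in osddm1a/1b, against 0 in both Cr-DJ-1 libraries.

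RNA-directed DNA methylation, which guides DRM2 by way of small RNAs, was read from another 11 genes. Of these, 2 were higher, 1 was lower and 8 missed the threshold in the authors' deposited table (27.3% called, against 46.7% of all tested loci). The median log2 fold was -0.03 and the range -0.61 to 1.48. At the ends were LOC_Os09g38268, called lower, and LOC_Os02g43460, called higher, both without a matched name. LOC_Os02g43460 had few reads, 30 and 19 in osddm1a/1b, against 1 and 2 in Cr-DJ-1. Almost all its reads lay in osddm1a/1b, so this locus, 1 of the 2 called higher, could be called only as higher. OsAGO4b, a gene for an Argonaute protein that binds such small RNAs, was higher, with a log2 fold of 0.16 (SE 0.05, adjusted p = 0.00551 by the DESeq2 Wald test in the authors' deposited table). Its relative OsAGO4a was at -0.03 (adjusted p = 0.542) and OsRDR2, a gene for an RNA-dependent RNA polymerase, at -0.06 (adjusted p = 0.727) by the DESeq2 Wald test in the authors' deposited table, and neither passed. OsRDR2 had 475 and 444 normalized counts in osddm1a/1b, against 501 and 458 in Cr-DJ-1.

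A change in other remodellers of the SNF2 family was looked for in 14 loci, of which 13 had an adjusted p. Of these, 3 were higher, 3 lower and 7 missed the threshold in the authors' deposited table (46.2% called, against 46.7% of all tested loci), with log2 folds from -0.21 to 0.66 and a median of -0.07. None came near the fall of OsDDM1b. The only name matched was OsRAD54, a gene for a protein of recombination repair, with 135 and 119 normalized counts in osddm1a/1b, against 66.2 and 86.4 in Cr-DJ-1 (log2 0.66, SE 0.25, adjusted p = 0.0201 by the DESeq2 Wald test in the authors' deposited table).

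**Figure D4:**
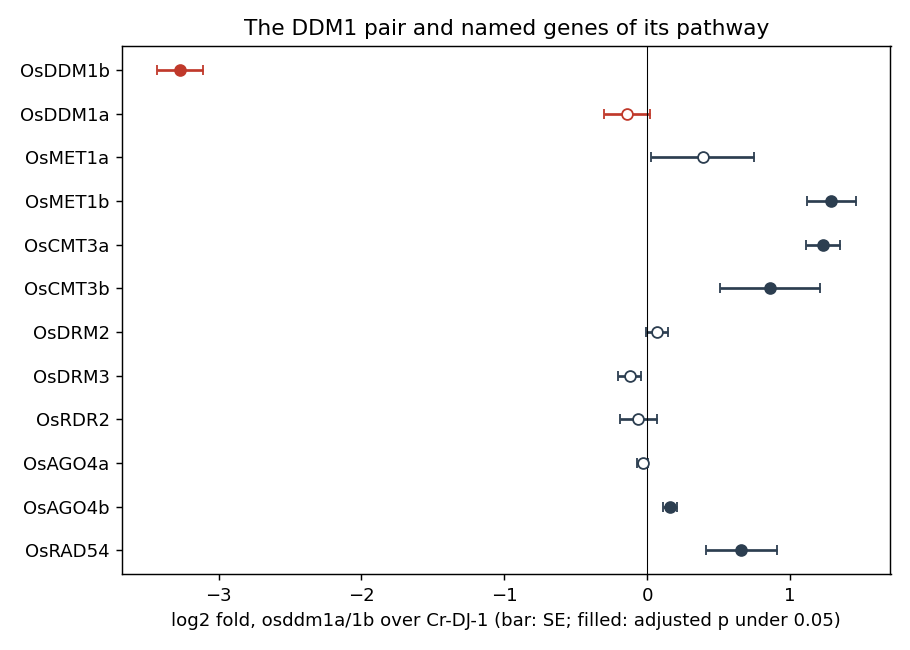
Log2 fold, osddm1a/1b over Cr-DJ-1, with SE bars, for the DDM1 pair (red) and the 10 named genes of the lists read here (dark), from the authors' deposited table with the sign turned. Filled points passed an adjusted p of 0.05; OsDDM1b at -3.27 stands apart from OsDDM1a at -0.14, and OsMET1b and OsCMT3a lie highest.

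Markers of tissues are given beside these values, and their calls are few to set against the 27.6% of all tested loci that were higher and the 19.1% that were lower. The 3 class I KNOX genes chosen as shoot meristem markers (OSH1, OSH15 and OSH71) were all higher in the authors' deposited table, and none of them was at 0 in Cr-DJ-1. Their summed level was 180 and 159 normalized counts in osddm1a/1b, against 34.5 and 25.8 in Cr-DJ-1. OSH71 had 87.5 and 80 in osddm1a/1b, against 13.6 and 12.3 in Cr-DJ-1, and OSH1 had 56.3 and 46.2 in osddm1a/1b, against 9.07 and 10.1 in Cr-DJ-1. OSH15 was more scattered in Cr-DJ-1, with 36.4 and 32.7 in osddm1a/1b, against 11.8 and 3.37 in Cr-DJ-1. Of 3 leaf markers, the light-harvesting genes CAB1R (log2 1.23) and CAB2R (1.62) were higher and LOC_Os12g19470 was lower (-0.60) in the authors' deposited table, and the mean of the last was 41934 normalized counts. The means of CAB1R and CAB2R were 2135 and 3070 normalized counts, far below that of LOC_Os12g19470 but above those of the root and endosperm markers below. Neither of 2 root markers passed in the authors' deposited table, and their summed level was 498 and 499 in osddm1a/1b, against 488 and 505 in Cr-DJ-1. The root silicon channel gene OsLsi1 made up most of that. GluA2, a storage protein gene of the endosperm, had 193 and 189 in osddm1a/1b, against 267 and 245 in Cr-DJ-1. It passed as lower (log2 -0.40, adjusted p = 0.0481 by the DESeq2 Wald test in the authors' deposited table). Whether a different mix of tissues takes part in the OsDDM1b, OsMET1b or OsCMT3a values was not tested.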

How the data were processed

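RNA-seq of 2 osddm1a/1b and 2 Cr-DJ-1 libraries was analysed, grouped by sample titles. The submitters' processing notes name FastQC, Trimmomatic, TopHat, HTSeq, DESeq2, Bowtie and Bowtie2 2.1.0, with no word on what each did. For the genome build, the sources used here name none. The authors deposited 1 table of their comparison, without a header; its columns were identified from the values. The signal in the deposited table is a mean over libraries of size-factor scaled counts. Log2 values in the deposited table are moderated fold changes, and a standard error and a Wald score follow in the deposited table. The authors' p-value and the deposited adjusted p-value close each line; 0.05 was the threshold. The count model planned for deposited counts per library was not run, because the table gives none as deposited; reads recovered from it, which cover means under 1000 only, were tested with limma.

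Means were given to 10 significant digits, so the size factors follow from how much a single read adds to the lowest means. For each locus with a mean under 1000, whole-number combinations that match the mean were searched, and 1 was accepted when the moderated model returned the deposited fold within 5e-06 on the log2 scale and the next best missed it by more than 2e-05. This succeeded for 22302 of 22453 loci (99.3%), with a median misfit of 1.2e-08. For OsDDM1b 376 combinations matched the mean, the solution missed the fold by 5.9e-08 and the next by 0.026; for OsDDM1a these were 116, 1.8e-09 and 0.0084. In 960 simulated loci 99.3% had a solution and 0 solutions were wrong.

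Limma 3.58.1 (R 4.3.3) was run on log2(normalized count + 1) for the 18463 recovered loci with a mean of at least 10, with Benjamini-Hochberg adjustment. Of 200 simulated 4-fold changes it called 93.5%, and 6.03% of its calls were unchanged loci. The simulation changed only those 200 of 18463 loci and gave every locus the same dispersion. In the data limma called 58.8% of loci, so the simulated rates do not carry over to them or to smaller folds. Python 3.11.15 with scipy 1.17.1 gave exact permutation tests and Poisson intervals.

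The members, lists and tests were chosen with earlier results of these data known. In the 3 pathway lists a name was printed where RefSeq (assembly ASM3414082v1) holds it, or an alias noted with that table in view, on the same chromosome in locus order, which held for 10 of 36 pairs. The rule for named genes took OsDDM1a, OsDDM1b, the list members with such a name that passed, the 2 most abundant that did not, and for each of the pair the 2 loci with the nearest fold. Sequences of the pair were not used here.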

Additional observations from a re-analysis of the deposited data

How the results depend on the processing

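Of 42 alternatives in all, 32 kept the direction and side of the threshold or stayed within the set range, and none reversed. All of them used the deposited sign as turned here, so they could not test which genotype was higher. OsDDM1b passed and OsDDM1a did not under every one run. The residual OsDDM1b level was 10.3% of wild type from the moderated fold, 9.16% from recovered reads and 9.99% when folds were centred on the median of all loci. The centred residual was labelled as moved, while 10901 passing loci against 13641 were labelled as kept. The set range was thus not alike for all results, and the count of 32 does not measure stability. The summed pair stood at 33.2% from the moderated folds, 32.2% from recovered reads and 32.1% centred. Leaving out each library in turn, the OsDDM1b to OsDDM1a ratio ran from 9.39 to 10.9% of wild type, against 10.1%. OsDDM1b ranked 34th among falls over all loci and 13th among loci of 0.5 to 2 times its mean. With matched names alone, 100% of the SNF2 list passed, that is its 1 named gene, against 46.2%.

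The number of loci passing was 13641 as deposited, 10901 at an adjusted p of 0.01, 12723 at a mean of at least 10 and 10862 by limma on recovered reads. Without 1 library, limma called from 4648 to 10782 loci. The low counts, 4648 and 4679, came without an osddm1a/1b library, when the lone one is taken to vary as the Cr-DJ-1 libraries do; the cause was not tested. Limma, the left-out libraries for the locus counts, the reads for the sum and the ratio were chosen after seeing the data. The sum per length of transcript was not run, for want of lengths. No paired analysis was possible because the deposited columns carry no replicate numbers. Reads were recovered only below a mean of 1000, and 2 libraries per genotype limit every test.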
